A study of Mus musculus with 7 samples.

Results

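Cytochrome c oxidase is the last enzyme of the respiratory chain, and several of its small subunits exist as a broadly expressed isoform and a second isoform known from particular tissues. Here 9 genes of such subunits were followed in mouse lung epithelium: the broad isoforms Cox4i1, Cox6a1, Cox6b1, Cox7a2 and Cox8a, the isoform known from lung and oxygen sensing, Cox4i2, and the isoforms known from heart and skeletal muscle, Cox6a2, Cox7a1 and Cox8b. They were picked by gene symbol from the 21121 symbols in the files, which list 8 of the 9. Cox8b was not analysed here. The choice was made with values of these libraries in view, in particular the difference in Cox6a2 between postnatal day 56 (P56) and embryonic day 18.5 (E18.5). The levels of the members over the stages are therefore a description and carry no test.

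The catalytic core of the enzyme is encoded by mitochondrial DNA and the surrounding subunits by nuclear genes. The nuclear subunits stabilise the complex and adjust its activity, and subunits 6a, 7a and 8 are the ones for which striated muscle of many mammals swaps the broad for a muscle isoform. Subunit 4 has a second isoform, encoded by Cox4i2, that is known from lung and from the response to low oxygen.

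Cells came from lungs of C57BL/6 mice with no genetic change or treatment named in the labels. Living cells that carried Epcam and lacked CD31, CD45, CD146 and Ter119 were sorted by flow cytometry, and polyadenylated RNA was amplified and counted by SAGE, a method that sequences 1 tag from the 3' part of each transcript. There were 7 libraries over 5 stages. E18.5 and P56 had 2 libraries each, and the other stages, embryonic days 13.5 and 15.5 and postnatal day 14 (P14), had 1. The labels do not say whether animals were pooled. Libraries held 2559927 to 3895740 reads, and 1 read was worth 0.236 to 0.385 of the scaled tag units in which levels are given here. Epcam itself lay between 55.8 and 213 units in the 7 libraries. Tags are not recovered equally well from every gene, so a level is compared across libraries for 1 gene, and a ratio of 2 genes is read only for its course over the stages. In bulk samples such as these, fewer cells of a type and less RNA per cell cannot be told apart.

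The coding sequences of the subunit 6a pair are shown because the largest difference among the members lies between these genes. The last 240 columns of a global alignment of the pair are given, 5' to 3' and without the stop codon, from GENCODE vM21 transcripts on GRCm38. They hold coding bases 97 to 336 of Cox6a1 and 61 to 291 of Cox6a2. Capitals mark bases that differ from the partner gene or have no partner base.
Cox6a1: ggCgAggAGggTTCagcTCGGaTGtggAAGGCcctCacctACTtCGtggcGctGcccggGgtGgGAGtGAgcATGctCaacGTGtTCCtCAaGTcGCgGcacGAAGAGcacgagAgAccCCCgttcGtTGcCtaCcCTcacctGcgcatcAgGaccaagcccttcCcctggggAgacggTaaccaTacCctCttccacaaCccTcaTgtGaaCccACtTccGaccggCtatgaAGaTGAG
Cox6a2: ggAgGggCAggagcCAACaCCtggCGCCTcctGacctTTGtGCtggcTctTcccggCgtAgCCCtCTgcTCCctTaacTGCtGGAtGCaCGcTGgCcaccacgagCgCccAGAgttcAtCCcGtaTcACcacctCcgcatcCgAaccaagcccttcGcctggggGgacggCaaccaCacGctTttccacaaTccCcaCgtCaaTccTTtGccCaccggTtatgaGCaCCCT
Cox6a1 lies on the minus strand of chromosome 5 at 115345642 to 115348981 and Cox6a2 on the minus strand of chromosome 7 at 128205435 to 128206387, each with 3 exons. Of 290 aligned coding bases 188 were identical, or 64.8%, and the longest identical run was 12 bases. Coding identity was 69.6% for Cox4i2 and Cox4i1, 65.8% for Cox7a1 and Cox7a2, and 54.2% for Cox8b and Cox8a. The longest identical coding run over the 4 pairs was 14 bases.

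Near-identical copies elsewhere can still take tags from a member. Words of 25 bases from the last 300 bases of each member's coding transcripts were searched in the transcripts of all other genes. Only exact matches in the direction of the transcript were counted, so inexact copies and matches on the opposite strand were left out. For Cox6a1, 27.9% of these words also occurred in 1 annotated pseudogene, and for Cox7a2 6.88% in 1 pseudogene. Where the tags of these genes fall was not modelled, so the counts of Cox6a1 and Cox7a2 are uncertain by an unknown amount. Cox6b1 shared 2.83% with 2 pseudogenes and Cox4i2 1.08% with 2 other genes. Cox4i1, Cox6a2, Cox7a1, Cox8a and Cox8b shared none by this search. Exons of Itgad, an integrin gene on the opposite strand, overlap Cox6a2 by 67 to 70 bases. Where along Cox6a2 this overlap lies is not given here. Itgad is not among the symbols analysed here, and since no strand setting is given, tags from that overlap cannot be assigned to 1 of the 2 genes. Cox4i1 overlaps Emc8 on the opposite strand, which stood at 13.6 to 52.5 units. It also lies inside Gm20388, an annotated gene on the same strand that was not analysed here.

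Cox6a2, the heart and skeletal muscle isoform of subunit 6a, was the member with the widest range. It had 0 reads at E13.5 and 0 at E15.5. It had 23 reads, or 8.86 units, in E18.5 replicate 1 and 6 reads, or 2.26 units, in replicate 2. The P14 library held 206 units, and the P56 libraries 906 and 1254 units. From E18.5 on, each stage lay above all libraries of the stages before it. The mean was 5.56 ± 4.66 (SD, n = 2) at E18.5 and 1080 ± 246 (SD, n = 2) at P56, a ratio of 194. That ratio rests on few E18.5 reads: it was 122 with only replicate 1 of E18.5 and 478 with only replicate 2. Against a floor of 3 reads in the E15.5 library, P14 was at least 192-fold and P56 at least 1003-fold higher. By level, Cox6a2 was number 6728 of the 21121 listed genes in E18.5 replicate 1, number 817 at P14 and number 158 and 113 at P56.

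The step from P14 to P56 was larger for Cox6a2 than for 6 markers of alveolar type 2 cells, the surfactant-making cells of the alveolus. Cox6a2 was 37.1-fold higher at P14 than at E18.5 and a further 5.23-fold higher at P56 than at P14. At P14 it had reached 19.1% of its P56 mean. Sftpc, a surfactant protein gene, stood at 74.9% of its P56 mean at P14, and the 6 type 2 markers lay between 63.6% and 111%. Scgb1a1, a secretory protein gene of club cells, was 3.36-fold higher at P56 than at P14. The club cell markers Cyp2f2 and Cbr2 were 1.93-fold and 1.59-fold higher. The 4 markers of ciliated cells also had a large step, from a sum of 25.86 units at P14 to 128.91 and 137.97 in the P56 pair. Unlike Cox6a2, they were lower at P14 than in the E18.5 pair, at 111.65 and 109.64 units. Of all 12964 tested genes, 1.02% were at least 4 times higher at P56 than at P14 on the value + 1 scale. P14 is a single library, so this step has no replicate on 1 side.

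**Figure D1:**
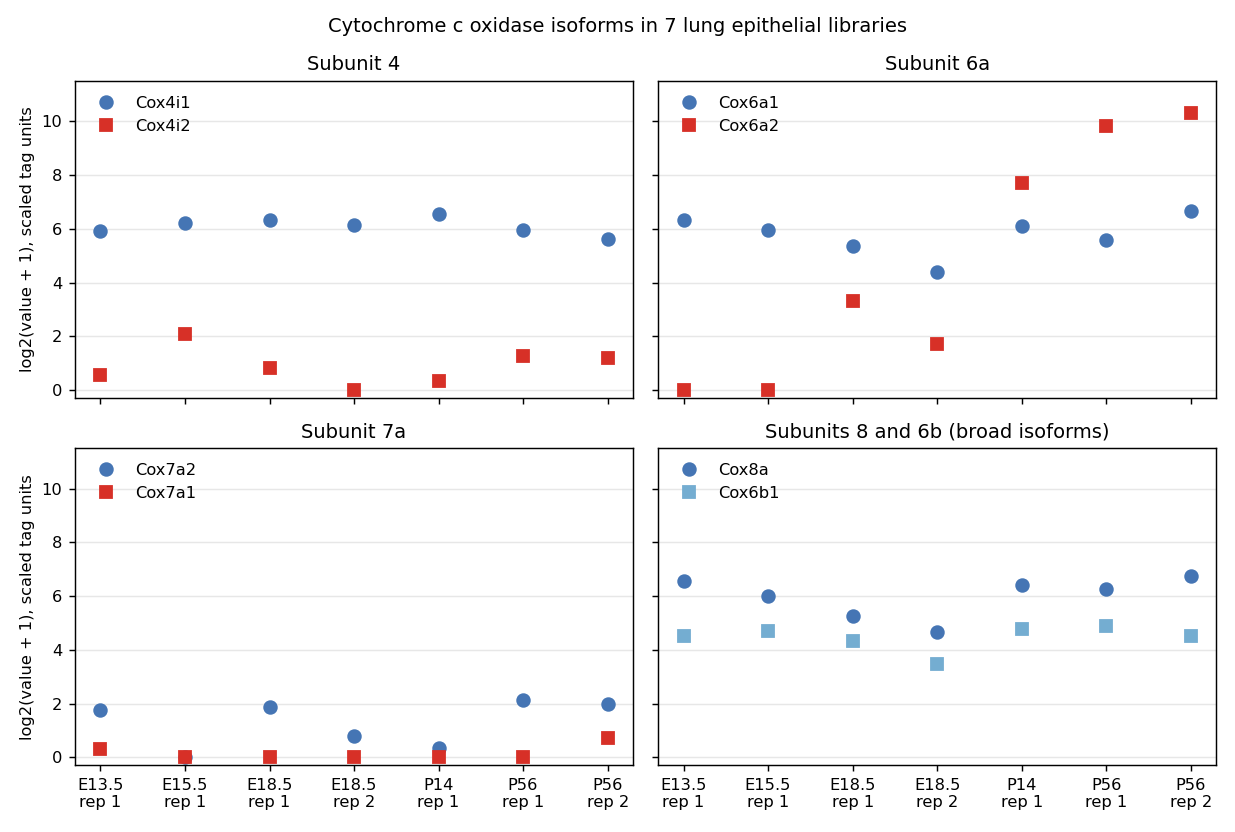
Level of each listed member, as log2(value + 1) in scaled tag units, in each of the 7 libraries (points), by subunit, with tissue isoforms in red. Cox6a2 goes from 0 at E13.5 and E15.5 to 906 and 1254 units at P56, while Cox6a1 stays between 19.97 and 100.4 units.

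Cox6a1, the broad isoform of the same subunit, did not mirror this course. E13.5 held 78.7 and E15.5 60.6 units, the E18.5 pair 40.4 and 19.97, P14 67.4, and the P56 pair 46.7 and 100.4. The E18.5 libraries were the lowest, and the P56 libraries differed 2.15-fold from each other. The mean was 30.2 ± 14.5 (SD, n = 2) at E18.5 and 73.5 ± 38.0 (SD, n = 2) at P56. The sum of both genes was 49.3 and 22.2 units in the E18.5 pair, 274 at P14, and 952 and 1354 in the P56 pair.

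The share of Cox6a2 in the reads of the pair does not depend on how libraries were scaled to each other. It was 0 of 333 reads at E13.5 (95% interval up to 1.10%) and 0 of 169 at E15.5 (up to 2.16%). At E18.5 it was 17.97% of 128 reads (95% interval 11.7 to 25.7%) in replicate 1 and 10.2% of 59 reads (3.82 to 20.8%) in replicate 2. It reached 75.4% of 995 reads (72.6 to 78.0%) at P14, and 95.1% of 3347 (94.3 to 95.8%) and 92.6% of 4181 (91.7 to 93.4%) at P56. The intervals cover counting error only and do not measure the spread between libraries. Those of the P56 replicates did not overlap each other, so no stage difference is read from them. In mean share the difference between P56 and E18.5 was 79.8 percentage points, and 75.9 to 83.7 with any 1 of the 4 libraries left out.

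**Figure D2:**
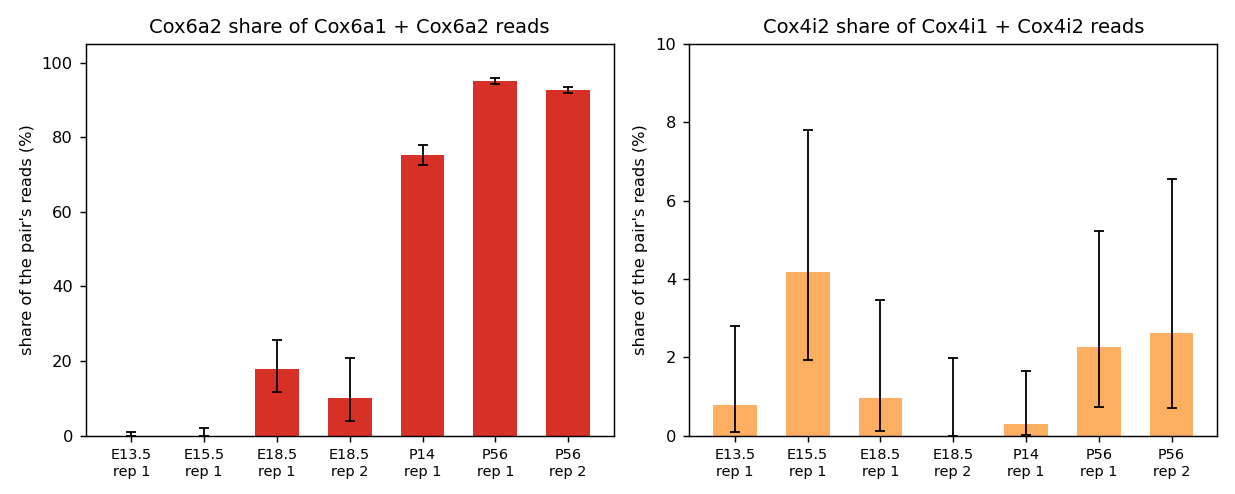
Share of the tissue isoform in the summed reads of its pair, in percent, for subunit 6a (left) and subunit 4 (right, on a shorter axis); bars are single libraries and whiskers are 95% exact binomial intervals. Cox6a2 goes from 0 at E13.5 and E15.5 to 92.6% and 95.1% at P56, while Cox4i2 stays at or below 4.19%.

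Cells of other kinds could carry Cox6a2, and their markers were read in the same libraries. Of 24 striated muscle markers 17 were listed, and their summed level was 21.7 and 39.1 units in the E13.5 and E15.5 libraries, 99.3 and 101 in the E18.5 pair, 132 at P14, and 121 and 94.9 in the P56 pair. At P56 the sum was above both E18.5 libraries in replicate 1 and below both in replicate 2. The myosin heavy chain genes Myh7, at 43.3 and 29.5 units, and Myh6, at 17.6 and 22.3, made up much of it, with Ttn. At P56, 8 and 9 of the 17 listed markers had reads in replicates 1 and 2. They included Acta1, at 7 and 10 reads, and Ryr2, at 26 and 11. Both P56 libraries had 0 reads for the cardiac actin gene Actc1 and the myosin light chain gene Myl3. The same held for the muscle creatine kinase gene Ckm and the troponin genes Tnnt2 and Tnnc1. Ckm, Tnnt2 and Tnnc1 had at most 1 read in any library. Ttn, which encodes the sarcomere protein titin, rose: the E18.5 pair held 1.16 and 0.377 units, P14 9.35 and the P56 pair 47.5 and 31.1 (log2 change 4.52, SE 0.475, limma adjusted p = 0.00134). The P14 library had reads for 16 of the 17 markers, with Actc1 at 31.1 units and Myl3 at 13.8. Actc1 was otherwise seen only at E15.5, at 3.23 units, and Myl3 in no other library. The part of such cells in the P14 and P56 values of Cox6a2 was not tested.

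Plasmacytoid dendritic cells, in which Cox6a2 is also known, carry CD45. The sort selected against CD45, and how completely it did so was not tested. The 5 listed of 7 immune markers summed to 0.385 and 4.14 units in the E18.5 pair and 0.569 and 3.89 in the P56 pair. Their P14 sum was 24.5 units, of which Csf1r made up 22.3. Of 7 plasmacytoid dendritic markers 5 were listed, with sums of 20.4 and 14.3 units in the E18.5 pair, 19.8 at P14, and 13.9 and 11.7 in the P56 pair. Tcf4 and Runx2 made up most of the E18.5 sums, and Tcf4, at 10.5 and 8.10 units, most of the P56 sums. Runx2 fell from 4.24 and 9.04 units at E18.5 to 0.569 and 0.972 at P56 (log2 change -2.04, SE 0.515, limma adjusted p = 0.0394). Bst2 had 2 and 1 reads in the E18.5 pair and 6 and 8 in the P56 pair, and Ccr9, a chemokine receptor gene, had 0 to 2 reads per library. Markers of brown adipocytes, which share muscle isoforms of this enzyme, summed to at most 0.473 units in any library over the 4 listed genes of 6. From E18.5 on, markers of type 2 cells and of club cells, secretory cells of the airway, were higher where Cox6a2 was. The type 2 markers already summed to 2054 units at E15.5, where Cox6a2 had 0 reads. The 7 markers of alveolar type 1 cells went the other way. They summed to 5827.4 and 6537.2 units in the E18.5 pair, 5849.8 at P14 and 3023.5 and 3476.2 in the P56 pair. The 6 type 2 markers summed to 9390 and 8933 units in the E18.5 pair, 32730 at P14 and 43026 and 47898 in the P56 pair. The 3 listed of 4 club cell markers summed to 513 and 603 units in the E18.5 pair, 2620 at P14 and 3973 and 4748 in the P56 pair. Most of that was Cbr2, at 440 and 527 units in the E18.5 pair, 2459 at P14 and 3497 and 4342 in the P56 pair. The part of these cells in the level of Cox6a2 was not tested.

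Genes whose levels followed Cox6a2 most closely were ranked among 2144 tested genes with a highest stage mean of at least 100 units. The nearest 5 were Aox3, an aldehyde oxidase gene (r = 0.995), H2afj, a histone H2A variant gene (0.990), Acsl5, which activates long-chain fatty acids (0.989), Vimp, a selenoprotein gene of the endoplasmic reticulum (0.985), and Ahcyl2 (0.985). These are Pearson correlations of log2(value + 1) over the same 7 libraries, which share their depth and stage, and are given as a description. The sizes were unlike: from E18.5 to P56 Aox3 was 29.0-fold higher and the other 4 3.42-fold to 6.26-fold, against 194-fold for Cox6a2. At P14 Aox3 stood at 33.1% of its P56 mean and the other 4 at 52.8% to 80.9%, so all 5 were nearer to their adult level than Cox6a2 at 19.1%.

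**Figure D3:**
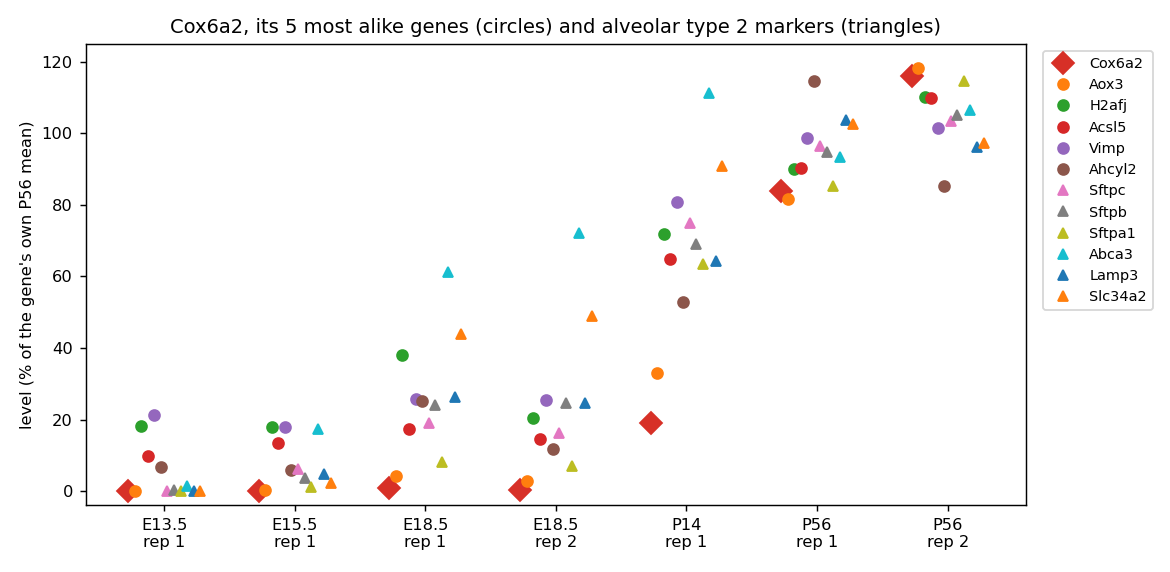
Level of Cox6a2 (diamond), its 5 most alike genes (circles) and 6 alveolar type 2 markers (triangles) in each library, as a percentage of the gene's own mean at P56. At P14 Cox6a2 is the lowest point, at 19.1%.

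Cox4i1, the broad isoform of subunit 4, was the steadiest member. It lies on chromosome 8 at 120668222 to 120674207, and E13.5 held 59.8 and E15.5 73.9 units, the E18.5 pair 78.5 and 68.9, P14 91.9, and the P56 pair 61.2 and 48.3. Its highest library was 1.90 times its lowest. The mean was 73.7 ± 6.78 (SD, n = 2) at E18.5 and 54.7 ± 9.14 (SD, n = 2) at P56, which made Cox4i1 the only broad isoform with lower libraries at P56 than at E18.5.

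Cox4i2, the isoform named for lung, had tag counts close to the limit of detection in these libraries. Given unequal recovery of tags, these counts say nothing of its true level relative to other genes. Cox4i2 lies on chromosome 2 at 152754173 to 152765037. The files hold 23 reads of it in all: E13.5 had 2 and E15.5 9, the E18.5 pair 2 and 0, P14 1, and the P56 pair 5 and 4. The highest level was 3.23 units at E15.5. As a share of the subunit 4 pair it was 4.19% at E15.5 (95% interval 1.93 to 7.80%), 0.971% (0.118 to 3.46%) and 0 (which allows up to 1.64%) at E18.5, and 2.27% (0.742 to 5.22%) and 2.61% (0.717 to 6.56%) at P56. These intervals cover counting error only, so no stage difference is read from them. In mean share P56 was 1.96 percentage points above E18.5, and 1.47 to 2.44 with any 1 of the 4 libraries left out. That difference rests on 0 to 5 reads of Cox4i2 per library. The E15.5 library, where Cox4i2 was highest, also had reads for 7 of 9 listed smooth muscle and pericyte markers, summing to 30.9 units, against 2 and 1 of 9 at P56, summing to 2.56 and 2.59. Within that list Pdgfrb, Cspg4, Abcc9 and Myh11 had 5, 8, 5 and 5 reads at E15.5 and 0, 1, 0 and 0 at E13.5. The rest of the list went the other way. Acta2, Tagln, Notch3, Cnn1 and Rgs5 had 24, 1, 38, 0 and 0 reads at E15.5 and 31, 71, 101, 2 and 1 at E13.5. At E13.5, 6 of the 9 had reads. The E13.5 sum of 48.9 units was mostly Notch3 at 23.9 and Tagln at 16.8 units, and Cox4i2 had 2 reads there. Pericytes are known to carry CD146, which the sort selected against, and how completely it did so was not tested. The part of such cells in the Cox4i2 reads was not tested.

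Both isoforms of subunit 7a had few reads. Cox7a1, the muscle isoform (chromosome 7, 30184144 to 30186078), had 1 read at E13.5, 2 in P56 replicate 2 and 0 elsewhere, and did not pass the filter on low values. Cox7a2, the broad isoform (chromosome 9, 79755361 to 79759878), had 41 reads in all, between 0 at E15.5 and 12 in P56 replicate 1, with a highest level of 3.41 units. With 0 to 12 reads for the pair in a library, no share could be read: at P56 it was 0 of 12 reads (95% interval up to 26.5%) and 2 of 11 (2.28 to 51.8%). Low tag counts of Cox7a2 say nothing of its true level relative to other subunits, given unequal recovery of tags. At P56, where Cox6a2 had 3183 and 3871 reads, Cox7a1 had 0 and 2.

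Cox8a and Cox6b1, broad isoforms whose tissue partners are outside the listed members, shared a low point at E18.5 with Cox6a1. Cox8a (chromosome 19, 7215153 to 7217616) had 93.3 units in the E13.5 and 62.8 in the E15.5 library, 36.96 and 24.5 in the E18.5 pair, 83.9 at P14, and 75.4 and 106.6 in the P56 pair. The E18.5 libraries lay below all others, and the ratio of means of P56 over E18.5 was 2.96. Cox6b1, which sits where the monomers of the enzyme meet (chromosome 7, 30616861 to 30626151), stood at 21.7, 25.1, 19.3 and 10.2, 26.1, and 28.7 and 21.7 units in the same order. Its 2 E18.5 libraries were again the lowest, with a ratio of P56 over E18.5 of 1.71, or 1.31 without E18.5 replicate 2. The testis isoform of subunit 6b, Cox6b2, had 0 to 6 reads per library.

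Set side by side, 4 of 5 broad members had both P56 libraries above both E18.5 libraries and 1 had both below, among tested genes of which 31.6% were above and 25% below, or 56.6% either. Both E18.5 libraries lay below both early libraries, E13.5 and E15.5, for 3 of 5 broad members and above for 0, against 30.5% and 32.5% of tested genes, or 63% either. All 5 passed the filter, and of the 4 tissue isoforms Cox4i2 and Cox6a2 did. Since the members were chosen with this comparison known, nothing is read from these counts.

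The E18.5 libraries differed from each other. In E18.5 replicate 2 all 5 broad members were below their value in replicate 1, by 2.02-fold for Cox6a1, 1.89-fold for Cox6b1, 1.51-fold for Cox8a and 1.14-fold for Cox4i1. Over all tested genes 48.7% were lower in replicate 2. Together with the 6 nuclear subunit genes outside the members, 11 of 11 were lower there, and 8 of 11 had their lowest value of the 7 libraries in E18.5 replicate 2, against 15.1% of tested genes. With that library left out, 7 of 11 were lowest in E18.5 replicate 1, against 16.9% of tested genes. The 4 genes that were not lowest there were Cox4i1, Cox7a2, Cox5a and Cox7b. The 5 broad members among the 11 were chosen with values of these libraries known, so their part of these counts is a description.

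**Figure D4:**
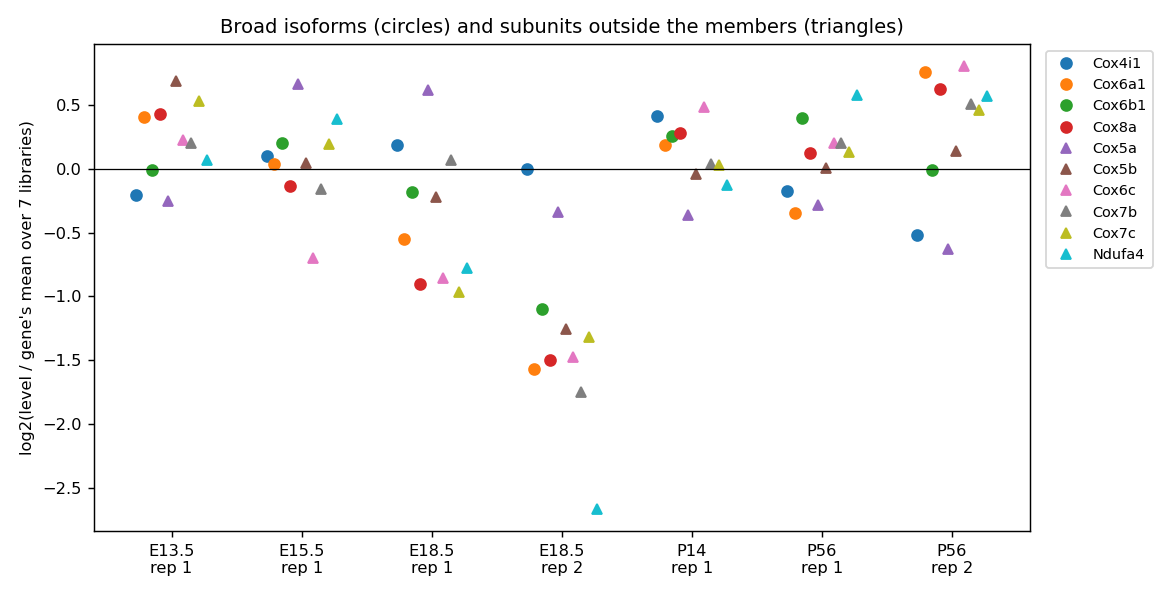
Level of 4 broad isoforms (circles, Cox7a2 left out for its few reads) and 6 nuclear subunit genes outside the members (triangles), as log2 of the level over the gene's mean across the 7 libraries. Most points fall below 0 in the E18.5 libraries, most deeply in replicate 2, and Cox4i1 is not among them.

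Nuclear subunits outside the members were tested, although their list too was drawn up with earlier results of these data known. From E18.5 to P56, Cox6c rose (log2 change 1.61, SE 0.324, limma adjusted p = 0.0179), from 19.6 and 12.8 units to 41.0 and 62.2. Ndufa4, once assigned to complex I and now counted with cytochrome c oxidase, rose from 11.2 and 3.01 to 28.7 and 28.5 (2.08, SE 0.504, adjusted p = 0.0342). That change was 1.28 without E18.5 replicate 2 and 2.88 without replicate 1 of that stage. Cox7c, Cox7b and Cox5b had log2 changes of 1.22, 1.11 and 0.74 and Cox5a of -0.58, with limma adjusted p between 0.0719 and 0.341. So 2 of 6 rose and none fell, with a median log2 change of 1.17, against 14.2% of all tested genes called (8.07% higher and 6.15% lower) and a median of 0.064. From the early stages to E18.5 estimates for all 6 were below 0: Ndufa4 fell by 1.75 on the log2 scale (adjusted p = 0.0377), from 20.1 and 25.1 units, and Cox7c fell by 1.28 (adjusted p = 0.0386). Of the 6, 2 fell and none rose, with a median of -0.95, against 29.1% called (15.8% higher and 13.4% lower) and a median of 0.027 over all tested genes. Both comparisons share the E18.5 libraries.

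Other isoforms and cytochrome c gave no call by limma, while edgeR called Ndufa4l2 lower at P56 than at E18.5. Cox7a2l, a relative of subunit 7a that takes part in respiratory supercomplexes, lay between 24.3 and 45.7 units in the 7 libraries. Ndufa4l2, a hypoxia-induced relative of Ndufa4, stood at 0 and 2.51 units at E13.5 and E15.5, 8.09 and 1.51 at E18.5 and had 0 reads in all 3 postnatal libraries (P56 against E18.5, limma adjusted p = 0.077). Cycs, which encodes the electron carrier cytochrome c, had 31.4 and 16.1 units in the early libraries, 13.5 and 8.29 in the E18.5 pair and 16.5 and 18.5 in the P56 pair, with limma adjusted p = 0.0555 for E18.5 against the early stages and 0.236 for P56 against E18.5. The genes Cox7b2, Cox8c, Cyct and the 3 mitochondrially encoded subunits were not analysed here.

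Assembly factors, which insert copper and heme and join the subunits, gave 1 call in each comparison. Of 25 named, 21 were tested. Cox17, a copper chaperone of the enzyme, rose from 3.85 and 1.88 units at E18.5 to 10.2 and 14.9 at P56 (log2 change 1.84, SE 0.456, limma adjusted p = 0.0374) and was the only call in that comparison. Cmc2 fell from 195 and 219 units at the early stages to 70.5 and 52.4 in the E18.5 pair (log2 change -1.75, SE 0.224, adjusted p = 0.00156) and was the only call in the other. Lrpprc, which stabilises mitochondrial messenger RNAs, had 83.2 and 88.2 units in the E18.5 pair and 56.6 and 43.4 in the P56 pair (limma adjusted p = 0.0632, named after its values were seen). By edgeR Lrpprc was called lower at P56. Median log2 changes of the list were 0.31 and -0.34. Over subunits, isoforms, cytochrome c and assembly factors together, 3 of 30 tested genes were called in each comparison, or 10%, beside the 14.2% and 29.1% of all tested genes.

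**Figure D5:**
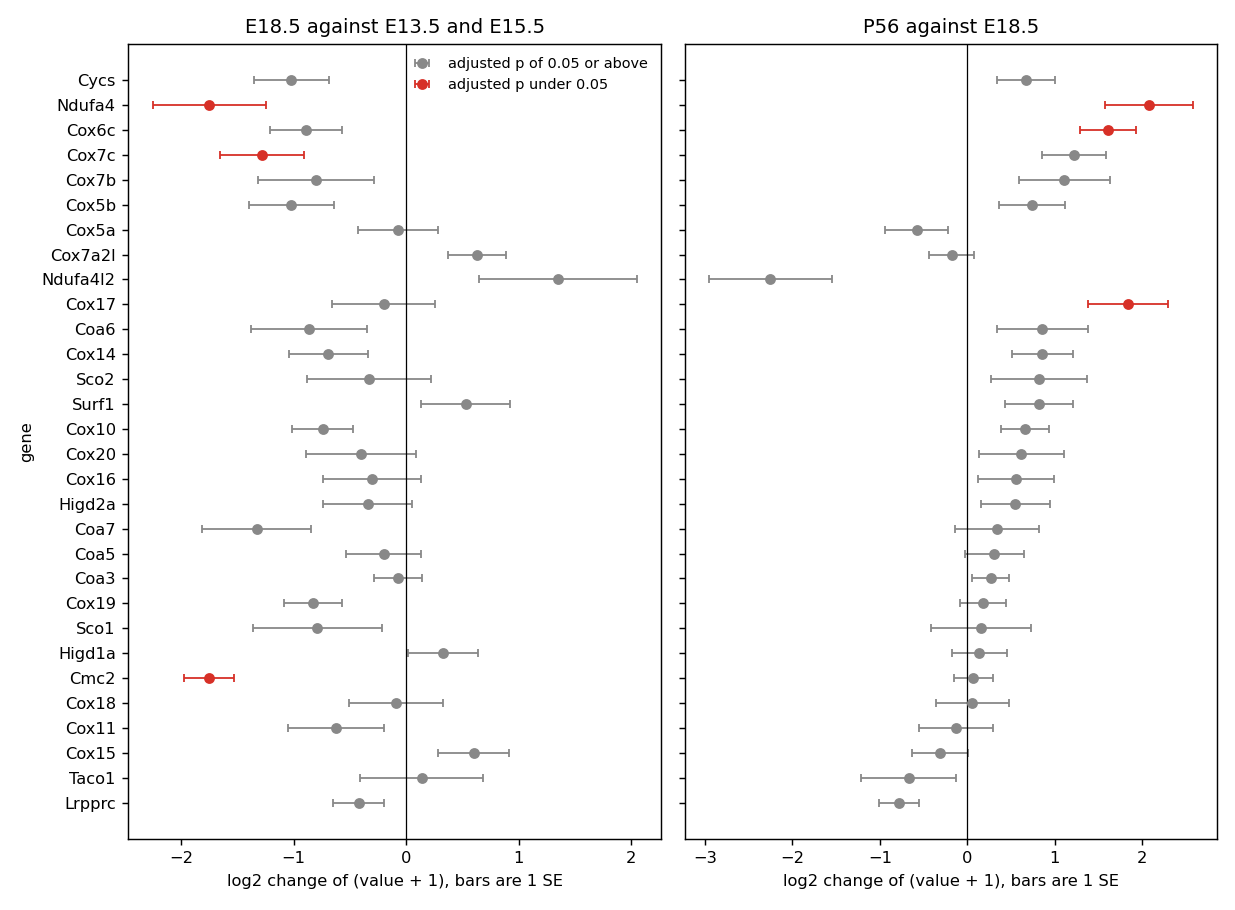
Log2 change of (value + 1) for 30 cytochrome c oxidase genes outside the members, E18.5 against E13.5 and E15.5 (left) and P56 against E18.5 (right); points are limma estimates, bars 1 SE, red an adjusted p under 0.05. Ndufa4 and Cox7c fell towards E18.5, Ndufa4 and Cox6c rose after it, and most genes were not called.

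The calls of Cox6c, Ndufa4 and Cox17 were lost without robust variance estimates, where their limma adjusted p was 0.0676, 0.122 and 0.0868, and without the filter on low values, at 0.210, 0.326 and 0.200. For the falls of Ndufa4 and Cox7c towards E18.5, adjusted p without robust estimates was 0.113 and 0.0586, and Ndufa4 stood at a log2 change of -0.95 without E18.5 replicate 2.

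Known regulators of these genes gave 0 calls among 12 tested from E18.5 to P56 by limma, with 2 at an unadjusted p under 0.05, where 14.2% of all tested genes were called. By edgeR 1 was called, Mef2a, lower at P56, and by DESeq2 0, with 0 at an unadjusted p under 0.05. From the early stages to E18.5, 1 rose and 3 fell by limma, or 33.3% of the list beside 29.1% of all tested genes, while edgeR called 3 and DESeq2 0, with 2 at an unadjusted p under 0.05. Mef2a, a MEF2 factor known to act on muscle genes, rose from 14.4 and 21.9 units to 37.7 and 41.1 (limma adjusted p = 0.018) and was at 20.5 and 21.4 at P56. Nrf1, a transcription factor of nuclear respiratory genes, fell from 85.5 and 54.5 to 42.4 and 30.1 (adjusted p = 0.0405). Tfam, which maintains mitochondrial DNA, fell from 8.03 and 4.66 to 1.93 and 0.754 (adjusted p = 0.0428), and Mef2c fell from 1.89 and 3.95 to 0 reads in both E18.5 libraries (adjusted p = 0.0311). Without robust variance estimates the limma adjusted p was 0.0725 for Nrf1 and 0.0693 for Tfam. Ppargc1a, a coactivator of mitochondrial genes, lay between 3.77 and 7.45 units throughout. Hif1a, the oxygen-regulated factor linked to Cox4i2, lay between 70.5 and 124.5 units.

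The promoters of 6 members are held in the RefSeq table (GRCm38.p6); Cox4i1, Cox4i2 and Cox6a2 are not. In the 250 bases before the start, the word CG, which reads the same on both strands, occurred 26 times for Cox6a1, 14 times each for Cox6b1 and Cox7a2 and 11 times for Cox8a. It occurred 4 times for Cox7a1 and 1 time for Cox8b, the muscle isoforms. Of 32851 promoters in the table, 9.59% had at least as many as Cox6a1, 35.6% as many as Cox8a, 62.2% as many as Cox7a1 and 92.1% as many as Cox8b, with a median of 6. This describes the letters of these windows only.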

How the data were processed

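RNA of sorted lung epithelium was read as 3' tags in 7 libraries. Each deposited column holds a signal, the tag count of a gene scaled by the authors with a single factor for that library. The scale was inferred here: 100% of values were whole multiples of 1 step within 0.01 reads. Bowtie2 2.2.5, R 3.4.0 and mm10 are named in the submitters' processing notes. The counting program, annotation, strand setting, anchoring enzyme and scaling method are not given in the sources used here. Symbols were matched as listed, and positions and coding sequences came from GENCODE vM21 (GRCm38, the same build).

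The members and gene lists were chosen with earlier results of these data known, so members were described without a test. Other genes were tested with limma-trend (limma 3.58.1, R 4.3.3) on log2(value + 1). Each fit held all 7 libraries with a coefficient per stage, robust variances and 2 residual degrees of freedom. Benjamini-Hochberg adjustment ran over the 12964 genes that passed filterByExpr on recovered reads, with calls at an adjusted p under 0.05. Stages with a single library borrow their spread from E18.5 and P56. The labels do not say whether libraries came from separate animals, so p-values measure only the spread between these samples. Recovered reads were also tested with edgeR 4.0.16 and DESeq2 1.42.0. Share intervals are 95% exact binomial (Clopper-Pearson), and for fold differences a count of 0 was given a limit of 3 reads. Both cover counting error only.

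Genes were named by rule: all members, all other subunits and isoforms, and assembly or regulator genes with a call and libraries that did not overlap, at most 6 per comparison. The 5 genes most like Cox6a2 were ranked by Pearson correlation over the 7 libraries, among tested genes whose highest stage mean was at least 100 units. Lrpprc, Emc8, Hif1a, Ppargc1a and single marker genes outside that rule were named after their values were seen.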

Additional observations from a re-analysis of the deposited data

How the results depend on the processing

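Other settings moved the counts of calls. Member values carry no test, so they were recomputed only under other scalings and with 1 library left out. For P56 against E18.5, limma called 1843 genes, 679 with no filter on low values, 1125 without robust variances and 894 with a replicate block. Among cytochrome c oxidase genes outside the members the 3 calls became 0 in each of those settings (8 higher and 1 lower, 5 and 2, and 5 and 2 at an unadjusted p under 0.05) and 5 with edgeR. The calls that edgeR added were Lrpprc and Ndufa4l2, both lower at P56. DESeq2 called 2, Cox6c and Ndufa4, and not Cox17 (DESeq2 adjusted p = 0.261). For E18.5 against the early stages, 3779 calls became 2412 with DESeq2 and 1893 with the block. The 3 calls among the oxidase genes became 6 on depth-scaled reads, which moved the median of all tested genes by -0.133, 1 without robust variances, 1 with DESeq2 and 1 with the block. Replicate numbers share only a number: differences between replicates 1 and 2 at E18.5 and P56 correlated at r = 0.00982 over genes. Leaving out 1 of the 4 replicated libraries gave 0 to 2798 calls and 0 to 4534 over all genes, and 0 to 7 and 0 to 10 among the oxidase genes, for the 2 comparisons in the same order. Each 0 came from limma on 1 residual degree of freedom, and edgeR, added after the data were seen, gave 1204 to 2798 calls and 3542 to 4534. The ratios of P56 over E18.5 of Cox4i1, Cox6a1, Cox6a2, Cox6b1 and Cox8a and the Cox6a2 and Cox4i2 share differences kept their sign in the settings run for them. With 1 of the 4 libraries left out, the ratio went from 194 to between 122 and 478 for Cox6a2 and from 2.44 to between 1.55 and 3.68 for Cox6a1. Depth limits Cox4i2, Cox7a1 and Cox7a2, with 23, 3 and 41 reads in all.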

Other observations

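Transcripts of striated muscle myosins were present in the sorted epithelial libraries apart from Cox6a2. Myh7, a slow and cardiac myosin heavy chain gene, had 0.236 and 16.5 units in the early libraries, 58.5 and 49.4 in the E18.5 pair, 36.9 at P14, and 43.3 and 29.5 in the P56 pair, and rose from the early stages to E18.5 (log2 change 3.56, SE 0.303, limma adjusted p = 0.000298). Myh6, its neighbour and close relative, with which reads can be shared, rose from 3.78 and 7.89 units to 23.9 and 32.8 (adjusted p = 0.0028). Myh4, a fast skeletal myosin gene, was also called higher at E18.5 (log2 change 2.05, adjusted p = 0.0196). It rests on few reads, 1 and 0 in the early libraries and 9 and 10 in the E18.5 pair. These myosin genes were 3 of 8 tested striated muscle markers, where 29.1% of all tested genes were called. The rest were not called, with log2 changes of 0.63 for Ttn, 0 for Myl3, -0.21 for Acta1, -0.7 for Ryr2 and -1.04 for Actc1. From E18.5 to P56 limma called 1 of the 8, Ttn, beside 14.2% of all tested genes.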
